A study of Lupinus albus with 12 samples.

Results

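Cytochrome P450 genes of white lupin (Lupinus albus) roots were described by their level in each library and by their change within minutes of sucrose addition. A gene was taken as a member when its protein name contained the words cytochrome P450, which held for 51 of the 23427 genes in the deposited table. By name, 47 of the members were P450 enzymes and 4 were NADPH--cytochrome P450 reductases. Among the 47 enzymes, 42 were called only putative cytochrome P450, 2 were trans-cinnamate 4-monooxygenases (cinnamate 4-hydroxylase, C4H), and 1 each was named cytochrome P450 85A, 97B2 and 98A2.

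Cytochrome P450 enzymes are heme proteins that insert 1 oxygen atom of molecular oxygen into a substrate. Most plant P450s sit in the membrane of the endoplasmic reticulum and receive their electrons from NADPH through NADPH--cytochrome P450 reductase, so a few reductases serve many P450s. In roots, P450s act in the phenylpropanoid pathway that leads to lignin, in legume isoflavonoid synthesis, and in making or breaking down the hormones brassinosteroid and abscisic acid.

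Wild-type plants of cultivar Amiga were grown in hydroponic Hoagland solution, and the question was which genes respond first to sucrose given at the root. Sucrose was added to 10 mM, and root sections of about 5 to 6 cm that included the tip were harvested without sucrose (0 min, control) or after 10, 15 or 20 min. Each time point had 3 libraries, 12 in all, and the cDNA was sequenced by Oxford Nanopore with each biological replication on a flow cell of its own. The replicate number is therefore also the flow cell number, and plants and flow cell cannot be told apart. The labels give 3 plants per replicate and the methods 1 plant.

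Values are the whole numbers deposited for each gene and library, whose sum per library lay between 184071 and 407780. They were not corrected here for library size or transcript length, and the number of reads behind a value is unknown, so tests compare each gene between libraries only. Where values of different genes or lists are set side by side, they describe the deposited numbers and not expression per transcript length. In whole root sections, fewer cells of a type and less RNA per cell cannot be told apart. The libraries of flow cell 3 stood apart. With each gene centered within its time point, libraries sharing flow cell 3 correlated across genes with a median r of 0.53, those sharing flow cell 1 with 0.28 and those sharing flow cell 2 with 0.26, and totals were 339599 to 407780 in flow cell 3 against 184071 to 356992 in the others. Summed root markers (111 genes named as aquaporin PIP or TIP, extensin, nodulin or peroxidase) took 1.56 to 3.36% of a library and leaf markers (38 genes) 0.0519 to 0.262%. No protein name held the words casparian strip.

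All 51 gene identifiers were found in the annotation of assembly CNRS_Lalb_1.0, on 23 chromosomes, with the most on chromosome 1 (6 genes) and chromosome 3 (5 genes). None overlapped another gene. The annotated spans ran from 195 to 9492 bases with a median of 2948, and 9 members spanned under 1000 bases. The GO terms of the deposited table gave heme binding to the 47 enzymes, placed 19 members in a membrane, and gave no member a biological process.

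Most members had low deposited values. Their mean value over the 12 libraries had a median of 0.667, against 1.67 for all genes, and 11 members (21.6%) were above 0 in every library, against 38.2% of all genes. A mean of at least 5 was reached by 7 members, while 37 never exceeded a value of 5 and 17 never exceeded 1. Genes had to reach a value of 1 in 3 or more libraries to be tested, which 32 members (62.75%) and 19138 of all genes (81.69%) met. Of the 19 members left out, 12 were above 0 in 1 library and 7 in 2 libraries, and 16 never exceeded a value of 2. Because a member can pass this filter through a single group in which it is high, the 32 tested members are not all of the members.

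**Figure D1:**
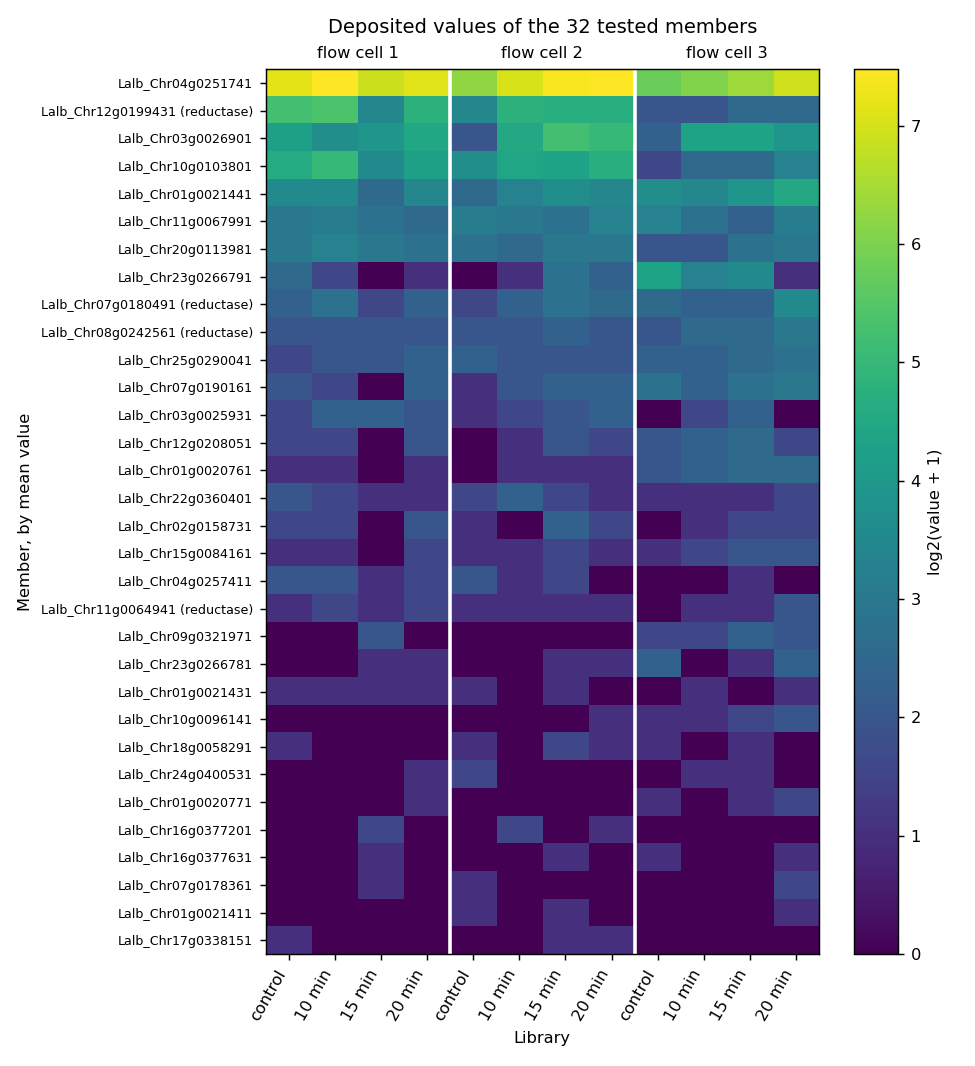
Deposited values of the 32 tested members on the log2(value + 1) scale, with genes in rows ordered by mean value and the 12 libraries in columns grouped by flow cell (white lines). C4H Lalb_Chr04g0251741 is bright in every column, reductase Lalb_Chr12g0199431 and C4H Lalb_Chr10g0103801 are dark in the 4 columns of flow cell 3, and Lalb_Chr01g0020761, Lalb_Chr09g0321971 and Lalb_Chr10g0096141 are brighter there than in most other columns.

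C4H catalyzes the second step of the phenylpropanoid pathway, the hydroxylation of cinnamate. Its gene Lalb_Chr04g0251741 (chromosome 4, 2702964 to 2706872) made up 49.4% of the summed deposited value of the members over all libraries, uncorrected for length. In the order of flow cells 1, 2 and 3, it was at 144, 75 and 55 without sucrose, 176, 130 and 66 after 10 min, 118, 168 and 82 after 15 min, and 138, 177 and 122 after 20 min. The control range was overlapped at every time. On the log2(value + 1) scale, on which changes of low genes are understated, the differences from the control were 0.44, 0.48 and 0.77 at 10, 15 and 20 min, each with a standard error of 0.48, and none passed (limma, unadjusted p = 0.374, 0.340 and 0.137). Within flow cells, the sucrose libraries averaged -0.02, 1.06 and 0.65 against their own control in flow cells 1, 2 and 3. These differences are unscaled, and the control of flow cell 2 had the lowest total of all libraries (184071).

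The other C4H gene among the members, Lalb_Chr10g0103801 (chromosome 10, 17178767 to 17184022), had control values of 23, 12 and 2. Sucrose libraries gave 31, 20 and 5 after 10 min, 11, 19 and 5 after 15 min, and 18, 25 and 9 after 20 min. The time points overlapped throughout, with differences of 0.70, 0.21 and 0.80 (standard error 0.81) that did not pass. The values of flow cell 3, from 2 to 9, lay below every value of the other flow cells, from 11 to 31.

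Reductases are the electron donors of the enzymes above, and all 4 were tested. Lalb_Chr12g0199431 (chromosome 12, 1949487 to 1955479) was at 37, 10 and 3 without sucrose, 40, 27 and 3 after 10 min, 10, 25 and 5 after 15 min, and 27, 25 and 5 after 20 min. Flow cell 3 again held the 4 lowest values. Against the control it differed by 0.49, 0.01 and 0.46 (standard error 1.02), which did not pass.

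Lalb_Chr07g0180491 (chromosome 7, 1787525 to 1793543) was at 4, 2 and 5 without sucrose, 6, 4 and 4 after 10 min, 2, 6 and 4 after 15 min, and 4, 5 and 11 after 20 min. Lalb_Chr08g0242561 (chromosome 8, 14542877 to 14552368) was at 3 in all control libraries and between 3 and 7 in the others. Lalb_Chr11g0064941 (chromosome 11, 2159148 to 2167632) was at 1, 1 and 0 in the control and between 1 and 3 in every sucrose library. Their largest differences from the control, all at 20 min, were 0.67, 0.33 and 0.86 and did not pass (unadjusted p of the last 0.0505). In contrast to Lalb_Chr12g0199431, the highest value of each of these 3 genes was in flow cell 3, in the 20 min library.

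**Figure D2:**
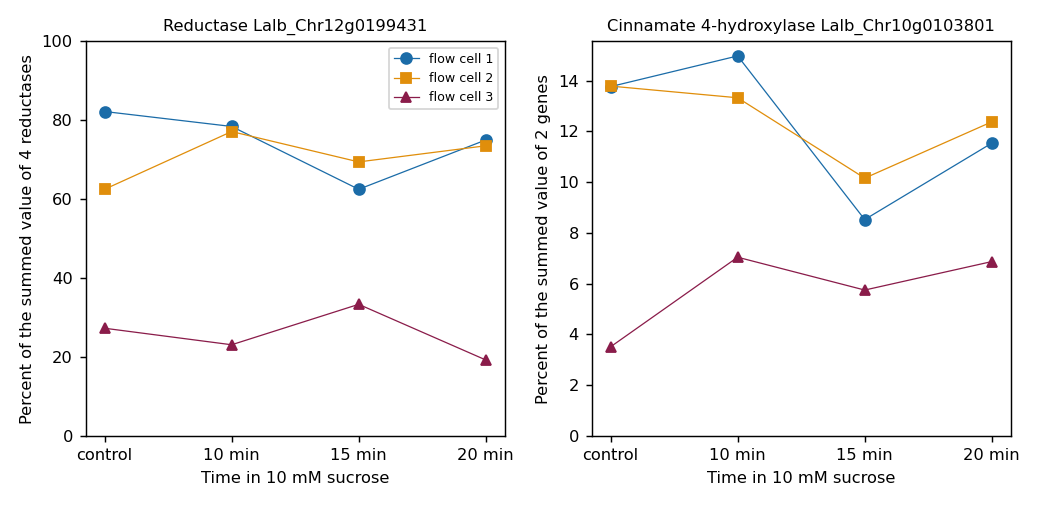
Percent of the summed reductase value held by Lalb_Chr12g0199431 (left) and percent of the summed value of both named C4H genes held by Lalb_Chr10g0103801 (right), one point per library, by time in sucrose and flow cell. In flow cell 3 the reductase share is 19.2 to 33.3% against 62.5 to 82.2% in the others, and the C4H share 3.51 to 7.04% against 8.53 to 15.0%.

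Lalb_Chr12g0199431 held 62.5 to 82.2% of the summed reductase value in flow cell 1, 62.5 to 77.1% in flow cell 2 and 19.2 to 33.3% in flow cell 3. The share of Lalb_Chr10g0103801 in the sum of both C4H members was 8.53 to 15.0%, 10.2 to 13.8% and 3.51 to 7.04% in the same order. This sum leaves out 2 putative C4H genes that are not members and are described below. The shares compare copies without correction for transcript length, and how alike the copies are in sequence was not examined. If copies are near-identical, reads can be assigned to either copy in counting, so the split between copies is uncertain. The difference between flow cells uses the same genes in every library. Neither range of flow cell 3 overlapped those of flow cells 1 and 2.

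Among the remaining members with a family name, cytochrome P450 98A2 (Lalb_Chr11g0067991, chromosome 11, 4291351 to 4296264) belongs to the family that hydroxylates coumaroyl esters on the way to lignin. Its values were narrow, at 7, 8 and 9 without sucrose, 8, 7 and 6 after 10 min, 6, 6 and 4 after 15 min, and 5, 9 and 8 after 20 min. The 15 min values were all below the control values, but the difference of -0.52 (standard error 0.33) did not pass. Cytochrome P450 85A (Lalb_Chr02g0158731, chromosome 2, 16463229 to 16467317), a family of brassinosteroid oxidases, was at 2, 1 and 0 without sucrose and between 0 and 4 in the sucrose libraries, with differences of 0.00, 0.44 and 0.86 (standard error 0.62). Cytochrome P450 97B2 (Lalb_Chr05g0211481, chromosome 5, 409731 to 415354) had a value of 1 in 15 min replicate 1, was listed at 0 in the other libraries and was not tested. Members of the 97 family hydroxylate carotenoids in Arabidopsis.

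At 10 min, 0 of 32 tested members were called higher and 0 lower, where a call needed a log2 FC of 1.5 or more in either direction and an unadjusted limma p no greater than 0.05, and 2 members met the p alone. Over all genes tested, 0.575% were called higher and 0.0732% lower. At 15 min, 1 member was higher and 0 were lower, beside 0.449% and 0.115% of all genes, and 2 members had a p of at most 0.05. At 20 min, 1 member was higher and 0 were lower, beside 0.695% and 0.131%, and 1 member had a p of at most 0.05. Over all 19138 genes tested, 455, 375 and 720 had an unadjusted limma p of at most 0.05 at 10, 15 and 20 min. With 32 members tested, 1 call is too few to set their share against that of all genes.

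The median difference of the tested members was 0.03, 0.16 and 0.40 at 10, 15 and 20 min, against 0.19, 0.06 and 0.26 for all genes. Scaling the libraries by median-of-ratios size factors brought the all-gene medians to 0.01, 0.01 and 0.04, and the unscaled differences given here are to be read against the unscaled medians. It also moved the split of all calls at 20 min, from 133 higher and 25 lower to 73 higher and 40 lower. Scaling to the same total gave 84 higher and 28 lower after 10 min in place of 110 and 14, and 94 higher and 41 lower after 20 min. At 15 min both counts went up, from 86 higher and 22 lower to 93 and 33 with size factors and to 120 and 35 with the same total. No member had an adjusted p (Benjamini-Hochberg over all genes tested, limma) of at most 0.05 at any time, the lowest being 0.979, and 0.00523% of all genes did at each time. The same held for all sucrose libraries against the control (0.00523% of all genes, 1 member with unadjusted p at most 0.05) and for the F test over the time points (0.00523%, 0 members). For 20 min against 10 min it was 0 members, beside 0.0% of all genes, with 1 member at an unadjusted p of at most 0.05. Of the 19138 genes tested, an unadjusted limma p of at most 0.05 was met by 626 for all sucrose libraries against the control. It was met by 384 for the F test and by 375 for 20 min against 10 min.

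**Figure D3:**
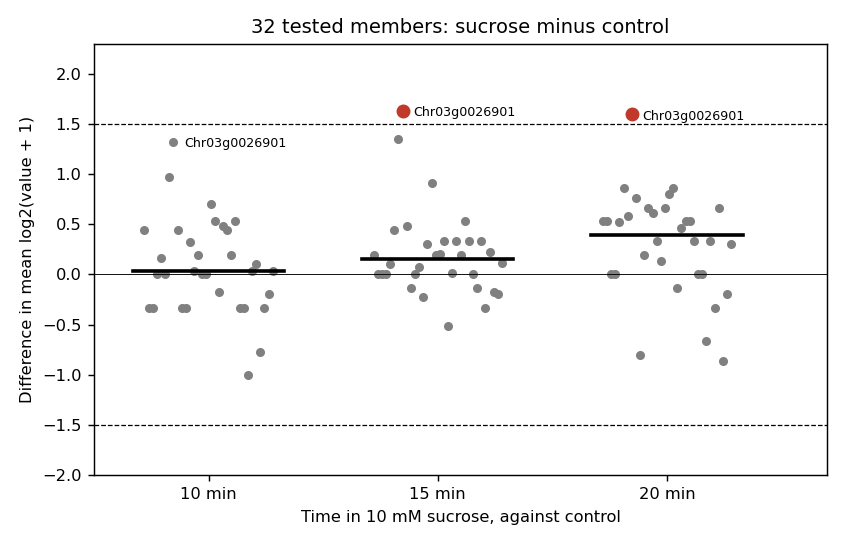
Difference from the control in mean log2(value + 1) for each of the 32 tested members (points) by time in sucrose (10, 15 and 20 min), with horizontal bars at the member medians (0.03, 0.16 and 0.40) and dashed lines at the threshold of 1.5. The only points past the threshold are those of Lalb_Chr03g0026901 at 15 and 20 min (red).

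The member called at 15 and 20 min was the same gene, Lalb_Chr03g0026901 (chromosome 3, 1386414 to 1388891), a putative cytochrome P450 for which the protein name gives no family. It was higher in sucrose in flow cells 2 and 3 and not in flow cell 1. Its control values were 18, 3 and 4, and the sucrose values were 12, 22 and 19 after 10 min, 14, 37 and 19 after 15 min, and 21, 31 and 14 after 20 min. In flow cells 2 and 3 every sucrose value lay above the control value, whereas the control of flow cell 1 lay inside the range of the sucrose libraries.

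The log2 FC of Lalb_Chr03g0026901 came to 1.33, 1.64 and 1.60 in order of time, each with a standard error of 0.59 (limma, unadjusted p = 0.0449, 0.0173 and 0.0194, adjusted p = 1, 1 and 0.979). All sucrose libraries together differed by 1.52 (standard error 0.48, adjusted p = 1). An exact permutation test of 9 sucrose against 3 control libraries (two-sided) gave p = 0.0182, and p = 0.0469 when libraries were exchanged only within a flow cell, both unadjusted and run for 20 named members. Both re-test the values on which the gene was called and are no independent support for the call. Within flow cells, the sucrose libraries averaged -0.23, 2.92 and 1.86 against their own control in flow cells 1, 2 and 3. These differences are unscaled, and the control of flow cell 2 had the lowest total of all libraries. That total was 184071, against 298356 to 356992 in the sucrose libraries of flow cell 2. A test of 3 against 3 libraries by permutation cannot go below p = 0.1.

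Both calls of Lalb_Chr03g0026901 rested on single libraries. Without control replicate 2 or control replicate 3 the difference was 1.21 or 1.37 at 15 min and 1.17 or 1.33 at 20 min, and neither time was called, nor was it without the replicate 2 library of that time (1.26 at 15 min, 1.33 at 20 min). Without control replicate 1 the differences were 2.02, 2.33 and 2.29, and all 3 times were called. Scaling by size factors or to the same total ended the call at 20 min (1.31 and 1.33), and flow cells 1 and 2 alone gave 1.45 and 1.61 with no call.

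**Figure D4:**
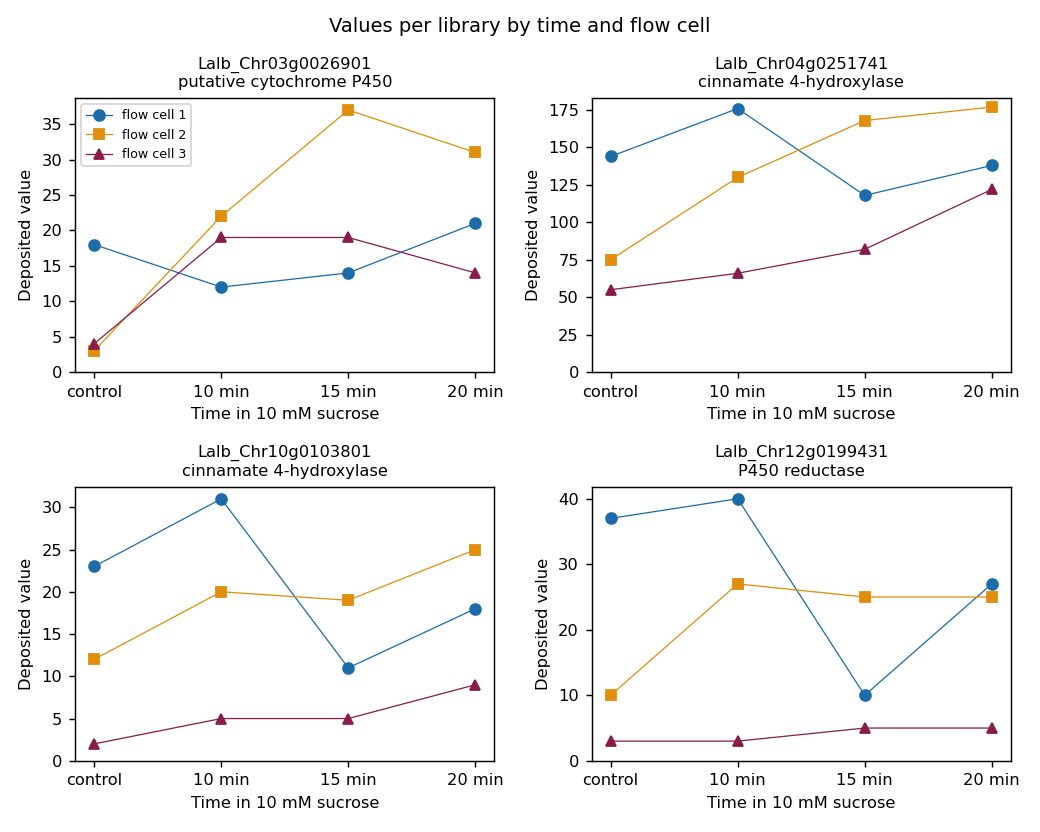
Deposited value per library against time in 10 mM sucrose for 4 members, with a symbol and line for each flow cell (control means no sucrose). Lalb_Chr03g0026901 is lowest in the controls of flow cells 2 and 3 (values 3 and 4) and not in flow cell 1 (18), and reductase Lalb_Chr12g0199431 and C4H Lalb_Chr10g0103801 are lowest in flow cell 3 at every time.

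No member had all 9 sucrose libraries above, or all below, all 3 control libraries, as 0.188% and 0.0261% of all genes did. For 2 further putative P450s, chosen here after their values were seen, an unadjusted p was at most 0.05 but the size threshold was not reached. Lalb_Chr03g0025931 was at 2, 1 and 0 in the control and at 4, 3 and 4 at 15 min, where no value overlapped the control, a difference of 1.35 (limma, unadjusted p = 0.0437, adjusted p = 1). Its values of 4, 2 and 2 after 10 min and 3, 4 and 0 after 20 min overlapped the control. Lalb_Chr18g0058291 was at 1 in each control library and listed at 0 in each 10 min library (limma, unadjusted p = 0.0334, adjusted p = 1). At the later times it was at 0, 2 and 1 (15 min) and at 0, 1 and 0 (20 min).

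The other putative P450s among the highest members gave values that overlapped between all times. Lalb_Chr20g0113981 (chromosome 20, 4918325 to 4921272) lay at 7, 6 and 3 in the control and between 3 and 9 in the sucrose libraries. Lalb_Chr01g0021441 (chromosome 1, 21147919 to 21157351) was at 11, 5 and 12 without sucrose, 11, 9 and 10 after 10 min, 5, 12 and 14 after 15 min, and 10, 10 and 22 after 20 min. Their differences from the control stayed at or below 0.52 at each time. A further 11 tested putative P450s never exceeded a value of 7, and their differences lay between -0.81 and 0.61 with no unadjusted p under 0.252. One of them, Lalb_Chr25g0290041, chosen here for its narrow range, was above 0 in every library, at 2, 4 and 4 without sucrose and between 3 and 6 in the 9 sucrose libraries.

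Members next to each other on a chromosome formed 3 runs with 8 genes. In the run of Lalb_Chr01g0021411, Lalb_Chr01g0021431 and Lalb_Chr01g0021441, the first was above 0 in 3 libraries and the second in 8, and neither exceeded 1, while the last reached 22. In the run on chromosome 23, Lalb_Chr23g0266771 (1068435 to 1070652) was at 1 in 2 libraries and listed at 0 in the rest. Lalb_Chr23g0266781 (1070654 to 1071383) was at 0, 0 and 4 in the control, listed at 0 in all 10 min libraries, and at 1, 1 and 1 and then 1, 1 and 4 at 15 and 20 min. Lalb_Chr23g0266791 (1072359 to 1074636) ranged most, with 5, 0 and 19 without sucrose, 2, 1 and 9 after 10 min, 0, 6 and 11 after 15 min, and 1, 4 and 1 after 20 min. Its highest value at the control, 10 min and 15 min was in each case in flow cell 3, and its differences from the control did not pass. The members of a run do not share their annotated span with each other.

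With the time points held fixed, 5 of the 32 tested members differed between flow cell 3 and flow cells 1 and 2 at an adjusted p of at most 0.05 (limma). These were 3 higher (9.38%, beside 13.4% of all genes) and 2 lower (6.25%, beside 4.78%), so the members' share of such differences was near that of all genes or below it. The lower genes were reductase Lalb_Chr12g0199431, by -2.28 (standard error 0.40, adjusted p = 0.00396), and C4H Lalb_Chr10g0103801, by -1.80 (standard error 0.32, adjusted p = 0.00475). Flow cell 3 was a single replication, so these p-values describe the libraries at hand and not the spread between replications.

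The higher genes were putative P450s of low value. Lalb_Chr09g0321971 and Lalb_Chr10g0096141 met the filter for testing only through their values in flow cell 3. Their calls, and the share of higher members, are therefore in part set by the filter, which acted on all genes alike. Lalb_Chr01g0020761 (chromosome 1, 20333589 to 20337905) had values of 3, 4, 5 and 5 in flow cell 3, from control to 20 min, and 0 or 1 in every other library, a difference of 1.62 (standard error 0.29). Its neighbor Lalb_Chr01g0020771 was at 1, 0, 1 and 2 in flow cell 3 and at 1 in 1 of the other libraries, a difference of 0.77 that did not pass (adjusted p = 0.0638). Lalb_Chr09g0321971 (chromosome 9, 1288850 to 1291868) was at 2, 2, 4 and 3 in flow cell 3 and at 3 in 1 other library, 15 min replicate 1, with 0 elsewhere, a difference of 1.62 (standard error 0.31). Lalb_Chr10g0096141 (chromosome 10, 11880115 to 11883752) was at 1, 1, 2 and 3 in flow cell 3 and above 0 in 1 other library, a difference of 1.27 (standard error 0.24).

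The first C4H gene, Lalb_Chr04g0251741, was lower in flow cell 3 by -0.80 without passing (adjusted p = 0.0759), and passed once the libraries were scaled by size factors (-0.95, adjusted p = 0.0190) or to the same total (-1.27, adjusted p = 0.00507). Under these scalings 7 and 8 members were called, which included the 5 genes above in both cases. The all-gene split moved with them, from 2557 higher and 915 lower to 2546 and 1290, and to 1792 and 2295. Markers moved with flow cell 3 as well. The summed root markers were at 2.53 to 3.36% there and 1.56 to 1.72% in the other libraries. Of the kinds in that sum, only nodulins were apart and higher in flow cell 3 (16 genes, 0.0856 to 0.938% against 0.00761 to 0.0488%). The aquaporins (2 genes, 0.313 to 1.84% against 0.240 to 0.378%) and extensins (10 genes, 0.251 to 0.418% against 0.266 to 0.395%) overlapped, and the peroxidases, 83 of the 111 genes, were at 0.638 to 0.894% against 0.826 to 1.04%. The 4 genes of the small ribulose bisphosphate carboxylase subunit, a leaf protein, were at 0.0113 to 0.0406% against 0 to 0.00231%. The summed leaf markers were at 0.0841 to 0.262% against 0.0519 to 0.124%. The part of these markers in the flow cell differences was not tested.

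**Figure D5:**
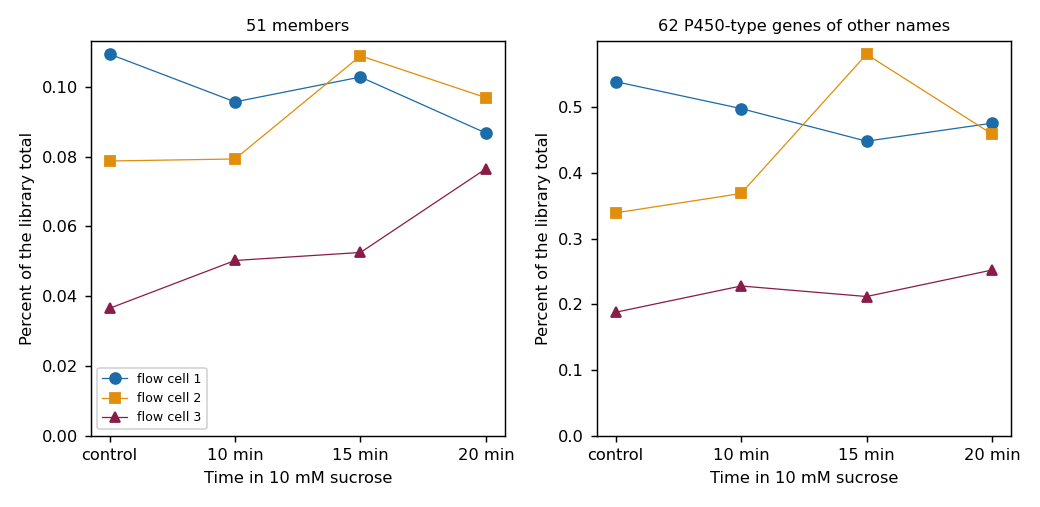
Percent of each library's summed value taken by the 51 members (left) and by the 62 P450-type genes of other names (right), by time in sucrose, with a symbol and line per flow cell. Both shares are lowest in flow cell 3 at every time, at 0.0365 to 0.0766% and 0.188 to 0.252%.

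Together the members took 0.109, 0.0788 and 0.0365% of the summed value of the control libraries, 0.0957, 0.0793 and 0.0503% after 10 min, 0.103, 0.109 and 0.0526% after 15 min, and 0.0868, 0.0969 and 0.0766% after 20 min. The range at each time point overlapped that of the control. Flow cell 3 gave the lowest share at each time. In flow cell 3 the 3 sucrose libraries lay above their control, in flow cell 1 they lay below it, and in flow cell 2 they lay above it.

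Many P450s carry the name of their reaction and not the words cytochrome P450. A list of 62 genes with other names, picked by GO terms for heme binding and monooxygenase or paired-donor oxidoreductase activity, took 0.188 to 0.580% of a library. At 10, 15 and 20 min, 0 of its 47 tested genes were called in either direction, and the medians were 0.25, 0.20 and 0.32. An unadjusted limma p of at most 0.05 was met by 1, 0 and 3 of them, beside 455, 375 and 720 of the 19138 genes tested. A gene of this list for isoflavone synthase, the entry enzyme of legume isoflavonoids (Lalb_Chr05g0218601), was at 383, 219 and 126 without sucrose, 529, 366 and 173 after 10 min, 334, 485 and 148 after 15 min, and 411, 519 and 228 after 20 min. At each time the library of flow cell 3 held the lowest value of this gene. The putative 2-hydroxyisoflavanone synthase Lalb_Chr20g0121481, another name for this enzyme, did not follow it. Its flow cell 3 difference was 0.09 (limma, adjusted p = 0.894). At 20 min it differed from the control by 1.22 (limma, unadjusted p = 0.0189, adjusted p = 0.979), below the size threshold.

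Between flow cells, 7 of the 47 were higher (14.9%) and 11 lower (23.4%) in flow cell 3, beside the same 13.4% and 4.78% of all genes. Of the putative C4H genes, Lalb_Chr21g0309031 was listed at 0 in all libraries of flow cells 1 and 2 and at 2, 6, 10 and 36 in flow cell 3, whereas Lalb_Chr18g0054161 was lower there by -1.13 (limma, adjusted p = 0.0403). Lalb_Chr21g0309031 thus met the filter for testing only through flow cell 3, and the share of higher genes is in part set by that filter. Of the putative abscisic acid 8'-hydroxylases, which break down abscisic acid, Lalb_Chr16g0380411 was at 12 to 27 in flow cell 3 and 1 to 4 elsewhere (2.22, adjusted p = 0.000453), Lalb_Chr05g0215161 was at 1 to 2 and 8 to 12 (-2.03, adjusted p = 0.000542), and the third, Lalb_Chr09g0325021, differed by -0.11 without passing (adjusted p = 0.852). Both putative costunolide synthases that passed, Lalb_Chr12g0201931 and Lalb_Chr23g0273391, were lower in flow cell 3 (-3.05 and -1.04, adjusted p = 0.000753 and 0.0363).

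Other electron-transfer proteins formed a list of 23 genes, named as cytochrome b5-like, NADH-cytochrome b5 reductase or ferredoxin--NADP reductase. Of these, 22 were tested and 0 were called at 10, 15 or 20 min. Their median differences were 0.32, 0.10 and 0.36. An unadjusted limma p of at most 0.05 was met by 1, 0 and 2 of them, beside 455, 375 and 720 of the 19138 genes tested. In flow cell 3, 4 were higher (18.2%) and 0 lower (limma, adjusted p at most 0.05), beside 13.4% and 4.78% of all genes. An unadjusted limma p of at most 0.05 was met by 7 of the 22, beside 6054 of the 19138 genes tested. The largest difference in the list was in the cytochrome b5-like gene Lalb_Chr02g0140991 (2.02, adjusted p = 0.00165).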

How the data were processed

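Per the methods of the study, Oxford Nanopore cDNA reads were oriented with Pychopper, aligned by Minimap2 to assembly CNRS_Lalb_1.0, joined into transcripts by StringTie and quantified per gene by Salmon, all by the authors. The deposited values are called CPM, yet 100% of them are whole numbers and the library totals differ, so they were treated as a score, a rounded value of unstated scale, and any normalization before rounding is unknown. A deposited table of the authors' own comparisons (mean, fold change, standard error, statistic and p-values) was not used. Protein names and GO terms came from UniProt through the authors' table, and coordinates are from the CNRS_Lalb_1.0 annotation. Per-sample columns left unused numbered 0.

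After adding 1 and taking log2, the 19138 genes that reached a value of 1 in 3 or more libraries were fitted in limma 3.58.1 (R 4.3.3, variance trend, 4 groups). Calls used the thresholds of the study, a two-sided unadjusted p no greater than 0.05 with a log2 FC of 1.5 or more in either direction, and separately a Benjamini-Hochberg adjusted p of at most 0.05 over all genes tested. Flow cell 3 was set against flow cells 1 and 2 in a fit with time point as a further term. Exact permutation tests used 220 assignments of libraries, or 64 within flow cells. The limma p-values of the time comparisons measure the spread between the 3 replications, each of separate plants according to the methods. Those of the flow cell comparison measure the spread between libraries left after flow cell and time point are taken out. They do not measure the spread between replications, because flow cell 3 was a single replication. Tables were made with Python 3.11.15, pandas 2.3.3, numpy 2.4.6 and scipy 1.17.1, and the fit was tested on simulated data.

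Genes were named by rule: members called at any time or with all sucrose libraries on one side of the control, the 10 with the highest mean, reductases, members with a family or enzyme name, the largest runs of neighbors, and the 5 with the smallest adjusted p between flow cells. Members and lists were chosen with earlier results of these data known. The replicate number is the flow cell in the study's methods and pairs libraries, with a median correlation of deviations of 0.284, 0.259 and 0.532 within flow cells 1, 2 and 3, and -0.335 between them. Given positive values within flow cells, centering within each time point makes those between them negative on average. The value of -0.335 is therefore no separate evidence of pairing. Alternatives were the value added before the logarithm, the filter, the scaling, a replicate block, the variance trend, leaving out each library, and flow cells 1 and 2 alone.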

Additional observations from a re-analysis of the deposited data

Results flagged for a closer look

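Among the 20 members named by rule, the highest of the 9 sucrose libraries stood apart from the rest in 2 by Dixon's criterion. Chance meets it in about 1 in 20 groups of continuous values, but that rate does not hold for values that are mostly 0, where a single value above 0 fixes the outcome. Of all 51 members, 15 were above 0 in exactly 1 sucrose library, 97B2 among them. Cytochrome P450 97B2 (Lalb_Chr05g0211481) had a gap of 1, as a share of the range, because 15 min replicate 1 held a value of 1 and all other libraries were listed at 0. Putative P450 Lalb_Chr23g0266781 had a gap of 0.569 of its range on the log2(value + 1) scale, on which the criterion was computed. The gap ran from a value of 1 to a value of 4 in 20 min replicate 3, and its control replicate 3, on the same flow cell, was also at 4.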

How the results depend on the processing

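The count of members called higher at 15 min (1) fell to 0 with 5 added before the logarithm and with flow cells 1 and 2 only, and ranged from 0 to 2 when a library was left out. At 20 min (1) it fell to 0 with 5 added, under median-of-ratios and total scaling, and with flow cells 1 and 2 only, and ranged from 0 to 1. At 10 min (0) it ranged from 0 to 1, and the lower count became 1 with 0.5 added (Lalb_Chr18g0058291). Members with all sucrose libraries on one side of the control (0) ranged from 0 to 1, the 1 being Lalb_Chr03g0026901 without control replicate 1. The gene gained at 15 min without that library was Lalb_Chr03g0025931. Flow cells 1 and 2 only was chosen after seeing the data, leaves 2 libraries per group, and could not test 7 of the 32 members. Members differing between flow cell 3 and the others (5) became 2 with a mean of at least 5, which the 3 higher genes do not reach, 8 under total scaling, and 5 to 6 without a library. Their median share of a library, 0.0831%, was 0.0409% without C4H Lalb_Chr04g0251741. With the replicate block, which pairs libraries by flow cell, the count at 10, 15 and 20 min was 0, 1 and 1, and no other call changed. Over all genes, calls at 20 min (133 higher, 25 lower) were 73 and 40 under median-of-ratios scaling and 358 and 41 in flow cells 1 and 2 only. Of 1411 values of named genes under an alternative, 1395 kept their side of the threshold, 12 lost a call and 4 gained one. Most of these values had no call in the main fit, so they had none to lose. All 12 lost calls were those of Lalb_Chr03g0026901 at 15 and 20 min, the only member called for sucrose. Values of 0 to 5, which 37 members never exceeded, allow few distinct steps, and the depth behind them is unknown.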

Other observations

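Of the members left out of the tests, 3 had a value above 2, each in 1 library only, and were picked here for that after their values were seen. Putative P450 Lalb_Chr01g0002171, with a span of 261 bases, was at 39 in 10 min replicate 3. Putative P450 Lalb_Chr03g0024961, with a span of 195 bases, was at 24 in 20 min replicate 2. Putative P450 Lalb_Chr19g0136651 was at 5 in 15 min replicate 1. All 3 were listed at 0 in the other libraries.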
